A study of Mus musculus with 19 samples.

Results

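Extrachromosomal circular DNA (eccDNA) is DNA from the chromosomes that is found as closed circles beside them. Here 4 of the 8336 genes in the table are described, Mir100hg, Bcl2, Pvt1 and Gm41335. They are the genes whose eccDNA abundance reached a log2 value of 8 in at least 3 of the 10 control samples. No other gene did, so the rule took 0.048% of the table. Among the genes as long as Bcl2 or longer, the shortest of the 4, it took 0.329%. The genes were thus chosen by their control values, and these values and the difference between groups are given below as a description, with no test.

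The study compared eccDNA in cervical spinal cord of mice with an ALS-like disease and of healthy mice, with 10 control and 9 ALS samples. The ALS mice were male B6.Cg-Tg(SOD1*G93A)1Gur/J animals, which constitutively overexpress a human superoxide dismutase 1 with the G93A change and develop a motor phenotype. They entered the study only if they reached a clinical score of 1 or 2 at an age of 18 to 21 weeks. The controls were C57BL/6J males of the same ages without the transgene. A sample was the cervical segment of 1 animal, a mixture of all cell types of the cord, so that fewer circles per cell and fewer cells of a type cannot be told apart. The table holds no value of the transgene, and the labels were not checked against it.

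Each value is a split-read count turned into PpGC. A split read crosses the junction of a circle. For each gene, split reads were added up over every eccDNA overlapping it, and the sum was scaled up by how many times longer the longest annotated gene is. The result is given as log2(PpGC + 1), called log2 PpGC here. It is scaled for gene length, but not between samples. The scaled value still depends on length, since 2 split reads give 4.12 in Gm41335 and 5.68 in the shorter Bcl2. A gene is at 0 in a sample where it had no eccDNA with at least 2 split reads.

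Bcl2 encodes the founding anti-apoptotic protein of its family. The BCL2 protein sits on the outer mitochondrial membrane and on the endoplasmic reticulum and holds back the pore-forming family members. The other 3 genes make long non-coding RNAs. Mir100hg is the host transcript of a conserved microRNA cluster, miR-100, let-7a-2 and miR-125b-1. Pvt1 lies beside the Myc oncogene, in a region known for amplification and viral insertion in tumours, and its RNA is known to be linked to Myc protein levels. Gm41335 is a predicted intergenic RNA gene farther along the same chromosome, with no role that is given here.

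On mm10, with GENCODE release M21, Mir100hg (named 3110039I08Rik there) spans chr9:41327077-41716994 on the plus strand. Its 33 exon blocks, the union over 48 transcripts, cover 6.13% of its 389.9 kb. Bcl2 spans chr1:106538178-106714274 on the minus strand, 176.1 kb, with 2 exon blocks that cover 5.20% and a single intron block of 166.9 kb between them. Pvt1 spans chr15:62037986-62378096 on the plus strand and begins 47.6 kb beyond Myc. Its 21 exon blocks cover 2.06% of 340.1 kb. Gm41335 spans chr15:63176838-63718289 on the minus strand, 798.7 kb beyond the end of Pvt1, and its 16 exon blocks cover 0.501% of 541.5 kb. All 4 are thus mostly intron. The M21 lengths gave whole split reads in all 4 genes, and the bounds in RefSeq differ for Mir100hg, Pvt1 and Gm41335.

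Long genes were the other shared feature. Of the 8155 genes with a position, whose median length was 49.4 kb, 85.1% were shorter than Bcl2, 94.1% shorter than Pvt1, 95.3% shorter than Mir100hg and 97.6% shorter than Gm41335. A long gene offers more bases to a circle, but the length scaling asks more reads of it. A log2 PpGC of 8 took 11 split reads in Bcl2, 20 in Pvt1, 23 in Mir100hg and 32 in Gm41335. Base composition set the genes less apart. The GC content was 42.2% in Mir100hg, 43.0% in Bcl2, 44.2% in Pvt1 and 39.5% in Gm41335, against a median of 43.3% over the placed genes. Repeats marked in the reference covered 20.7%, 20.3%, 21.4% and 31.9% of the 4 genes in that order, against a median of 25.2%.

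The microRNAs inside the genes are shown because the position of the circles relative to them is described below. In the RefSeq entries for GRCm38.p6, Mir100hg holds the hairpins Mir100 (chr9:41531425-41531504), Mirlet7a-2 (chr9:41536716-41536811) and Mir125b-1 (chr9:41581926-41582002), all on its own strand. Bcl2 holds Mir3473f (chr1:106546496-106546631), also on its own strand and within its intron. Mature sequences are written 5′ to 3′, with the seed, bases 2 to 8, in capitals. For Mirlet7a-2 only the 3p arm is shown.
mmu-miR-100-5p: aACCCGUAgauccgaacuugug
mmu-let-7a-2-3p: cUGUACAGccuccuagcuuuc
mmu-miR-125b-5p: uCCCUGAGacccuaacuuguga
mmu-miR-3473f: cAAAUAGGacuggagagaug
A related cluster on chr16 has Mir99ahg as its host, a gene that is also in the table. Its mmu-miR-99a-5p carries the same seed as miR-100-5p, and its hairpin Mir125b-2 gives the same miR-125b-5p.
mmu-miR-99a-5p: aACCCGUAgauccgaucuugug

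The samples differed in how many genes carried an eccDNA, which is called the load here. It ranged from 57 to 723 genes in the control samples and from 694 to 2204 in the ALS samples, so that the groups overlapped only between control 1 and ALS 6. The split reads on placed genes ranged from 3640 to 123406 per control sample and from 74396 to 391558 per ALS sample. Circles were copied by rolling circle amplification before sequencing, so split reads are not independent molecules. The methods ask for a difference above 1 and p under 0.01, and do not say whether their test was one-sided or two-sided. Read as two-sided, 111 genes (1.33%) were higher in ALS and 0 (0.0%) were lower, and read as one-sided, an alternative chosen after seeing the data, 189 (2.27%) and 0. A gene is said to pass below where it met the two-sided reading. The load of a sample is given below beside the results that it touches.

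Mir100hg was present in few control samples and was high in each of them. Its log2 PpGC was 10.59 in control 1, 10.82 in control 2 and 13.50 in control 8, and 0 in the other 7. These values came from 135, 159 and 1019 split reads. The 3 carriers were the 3 control samples with the highest load, 723, 462 and 330 genes.

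In the ALS samples Mir100hg was present more often and at lower values. Its log2 PpGC was 8.04 in ALS 1, 7.97 in ALS 3, 5.13 in ALS 4, 5.54 in ALS 5, 6.11 in ALS 8 and 8.56 in ALS 9, and 0 in ALS 2, ALS 6 and ALS 7. The split reads behind them were 23, 22, 3, 4, 6 and 33. All 6 ALS values above 0 lay below the lowest of the 3 control values above 0. The rule asked for 3 control values of at least 8, so these 3 had to be high, and the contrast is a description. The mean over all samples was nevertheless higher in ALS, 4.59 ± 3.64 (SD, n = 9) against 3.49 ± 5.67 (SD, n = 10). The summed split reads ran the other way, 1313 in the control samples and 91 in the ALS samples. Control 8 held 77.6% of the control sum, and the other 2 carriers had 135 and 159.

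Bcl2 was present in 4 control samples. Its log2 PpGC was 5.68 in control 1, 10.90 in control 2, 9.41 in control 7 and 13.03 in control 8, from 2, 76, 27 and 331 split reads. Control 7, with a load of 160 genes, carried Bcl2 but not Mir100hg.

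In the ALS samples 1 value of Bcl2 stood above all control values. Its log2 PpGC was 14.14 in ALS 1, 5.68 in ALS 3, 6.67 in ALS 5, 5.68 in ALS 7 and 8.57 in ALS 9, and 0 in the other 4. ALS 1 held 717 of the 740 split reads in the group, or 96.9%, and the others had 2, 4, 2 and 15. The means were 4.53 ± 4.97 (SD, n = 9) in ALS and 3.90 ± 5.35 (SD, n = 10) in the controls, and the other 8 ALS values lay within the range of the controls. Without ALS 1, the difference of the means turned from 0.62 to -0.58.

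Pvt1 had 50.3% of its control reads and 70.2% of its ALS reads in a single sample. In the controls its log2 PpGC was 10.01 in control 2, 6.05 in control 3, 9.23 in control 6 and 8.46 in control 7, from 79, 5, 46 and 27 split reads. In the ALS samples it was 10.23 in ALS 3, 6.72 in ALS 4, 8.46 in ALS 7 and 5.73 in ALS 8, from 92, 8, 27 and 4 split reads. Each group thus had 4 carriers over much the same range. The means were 3.46 ± 4.28 (SD, n = 9) in ALS and 3.38 ± 4.47 (SD, n = 10) in the controls.

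Gm41335 was carried by nearly all ALS samples. In the controls its log2 PpGC was 9.27 in control 1, 6.51 in control 2, 12.39 in control 6 and 8.84 in control 8, from 75, 11, 654 and 56 split reads. Control 6 was a sample of low load, with 94 genes, and Gm41335 took 4.52% of its split reads on placed genes, rank 3 among them.

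The ALS values of Gm41335 spread over a wide range. Its log2 PpGC was 7.80 in ALS 1, 5.08 in ALS 2, 8.74 in ALS 3, 4.12 in ALS 4, 4.68 in ALS 6, 7.95 in ALS 7, 13.02 in ALS 8 and 4.12 in ALS 9, and 0 in ALS 5. ALS 8 had 1015 of the 1135 split reads of the group, and ALS 4 and ALS 9 had 2 each, the least that can be seen. The means were 6.17 ± 3.70 (SD, n = 9) in ALS and 3.70 ± 4.98 (SD, n = 10) in the controls.

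**Figure D1:**
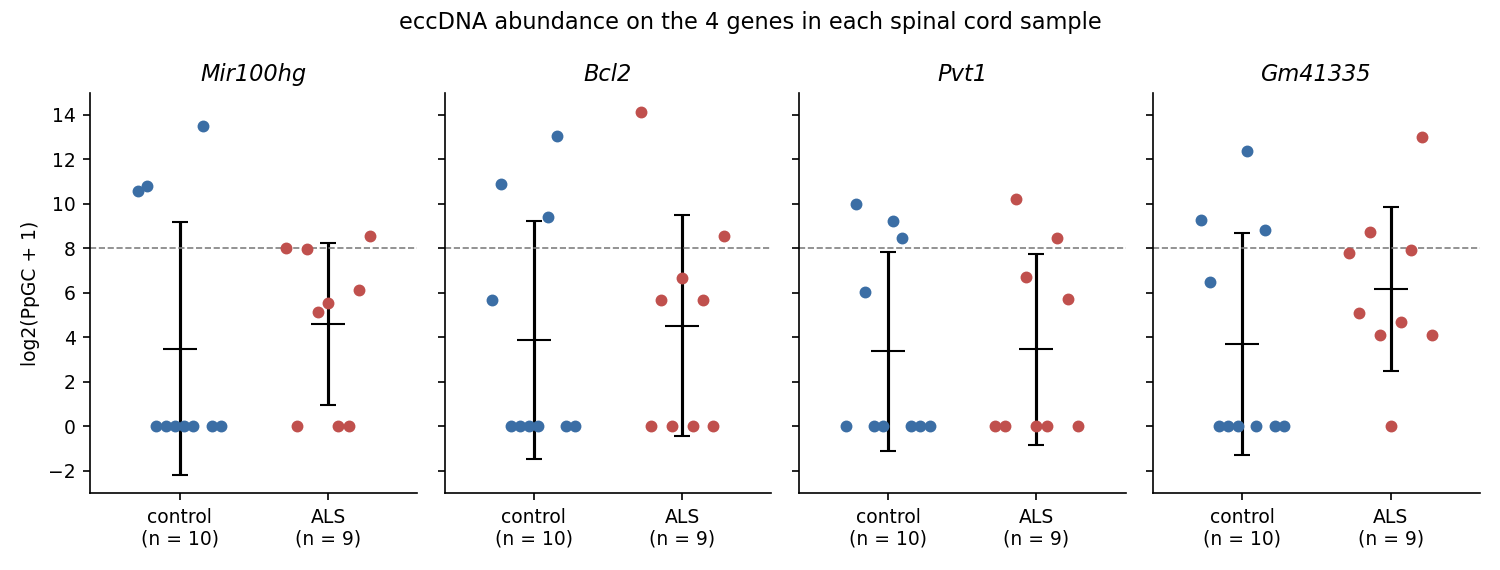
Each point is 1 spinal cord sample, with log2(PpGC + 1) on the vertical axis, control samples (n = 10) in blue and ALS samples (n = 9) in red. Black bars give the mean ± SD and the dashed line marks the value of 8 that chose the genes in the controls, and the groups overlap in all 4 panels.

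**Figure D2:**
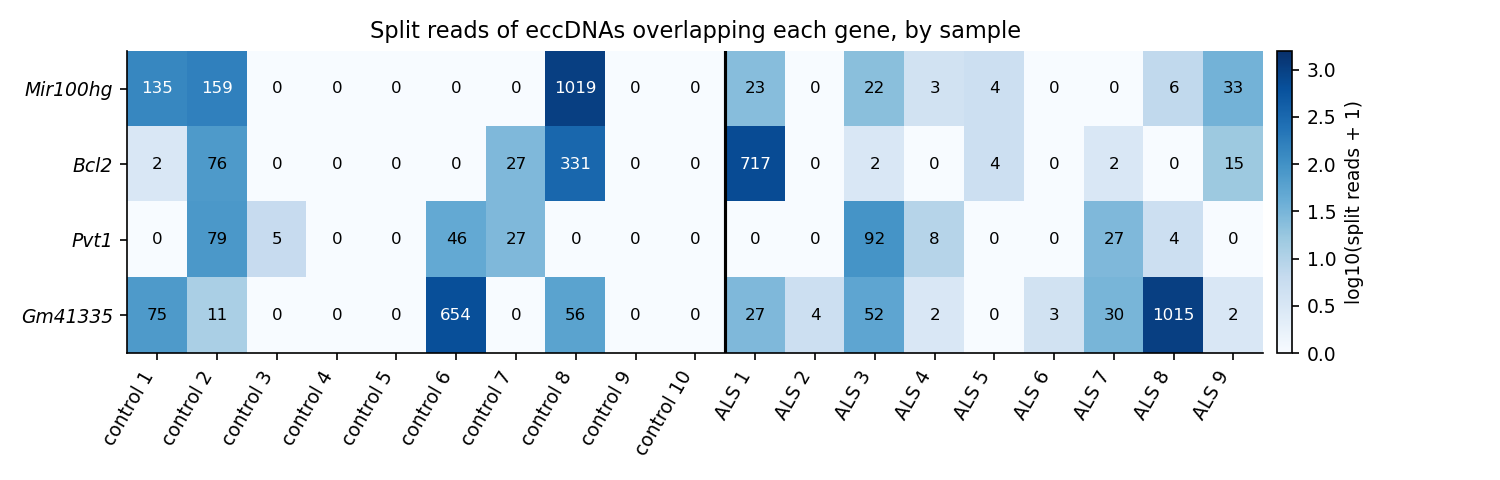
Each cell gives the split reads of eccDNAs that overlap a gene (row) in a sample (column), shaded by log10(split reads + 1), with control samples left of the black line. Most of the reads of Mir100hg lie in control 8 with 1019, of Bcl2 in ALS 1 with 717 and of Gm41335 in ALS 8 with 1015.

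The threshold of 8 lay between close values. The third-highest control value, on which the rule rests, was 10.59 for Mir100hg, 9.41 for Bcl2, 8.84 for Gm41335 and 8.46 for Pvt1. The genes next below were Fars2, which encodes the mitochondrial phenylalanyl-tRNA synthetase, at 7.92, Sulf1, which encodes an extracellular heparan sulfate 6-O-endosulfatase, at 7.53, and Cntnap5a, which encodes a contactin-associated cell adhesion protein, at 7.01. Fars2 was present in 5 control samples and thus in more than any of the 4 genes. Each of the 4 genes had exactly 3 control samples at or above 8. Control 2 and control 8 were each at or above 8 for 3 of the 4 genes, and leaving out either of them left 1 gene that met the rule.

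In the ALS samples none of the 4 genes met the same rule at a value of 8. At a value of 7, Mir100hg and Gm41335 were among 364 genes that did, and at 20 split reads without length scaling both were among 154, an alternative chosen after seeing the data. Of all genes, 181 (2.17%) reached 8 in at least 3 ALS samples, and of the 1217 genes as long as Bcl2 or longer 105 (8.63%) did. Each of the 4 genes reached 8 in 2 ALS samples, as did 1011 genes (12.1%) in at least 2, and 28.2% of the long genes. Mir100hg missed a further vote by its 22 reads in ALS 3, 1 short of the number needed.

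Presence in the ALS samples, which the rule did not use, was common among long genes. Pvt1 was present in 4 of 9 ALS samples, a number that 5.91% of all genes and 34.9% of the long genes reached. Bcl2 was present in 5, which 3.13% of all genes and 20.2% of the long genes reached. Mir100hg was present in 6, which 1.56% and 10.4% reached. Gm41335 was present in 8, which 0.444% of all genes and 36 of the 1217 long genes (2.96%) reached. In the controls, where the rule favours presence, Bcl2, Pvt1 and Gm41335 were present in 4 samples. At least 4 were reached by 0.288% of all genes and 1.81% of the long genes. Mir100hg was present in 3 control samples, and 0.84% of all genes were present in at least 3. Of the long genes, 3.62% were present in exactly 3, in addition to the 1.81% present in at least 4. In the order of mean log2 PpGC over all 8336 genes, the genes stood at ranks 2 to 5 in the controls, and in ALS at rank 27 for Gm41335, 131 for Mir100hg, 140 for Bcl2 and 405 for Pvt1.

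**Figure D3:**
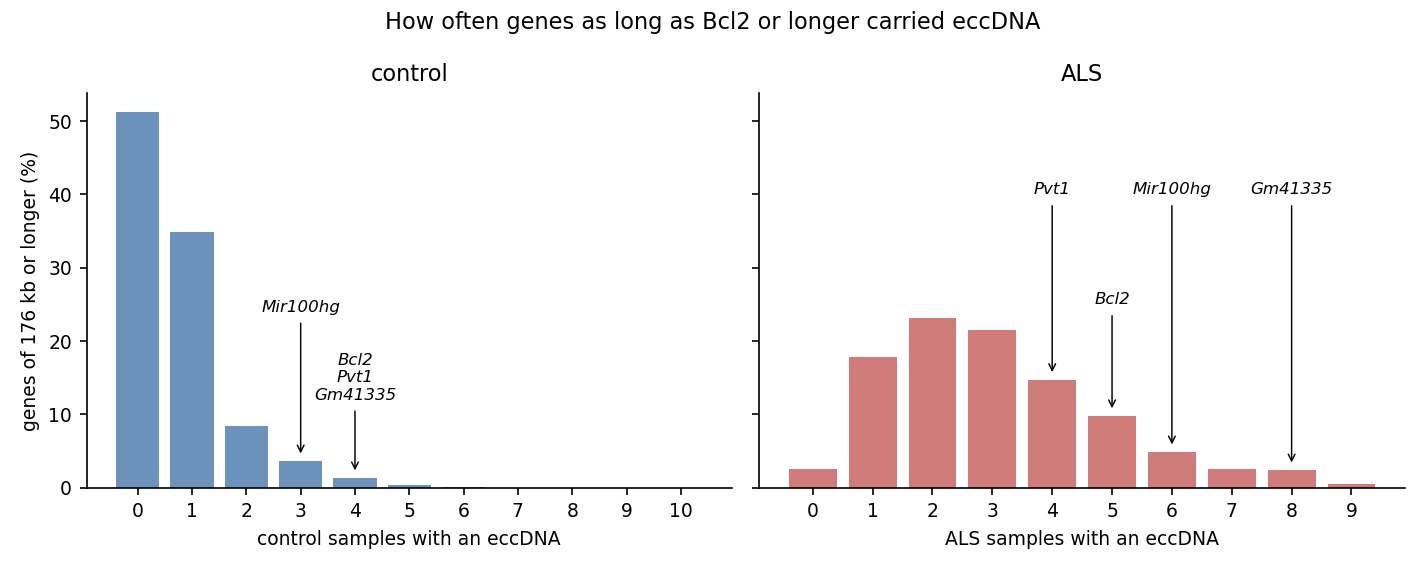
Bars give the percentage of the 1217 genes of at least the length of Bcl2 (176 kb) by the number of control (left, n = 10) or ALS (right, n = 9) samples with an eccDNA on the gene. Arrows mark the 4 genes, which lie in the thin right tail of the controls at 3 and 4 samples and between 4 and 8 samples in ALS.

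The 4 genes were then compared with each other within the ALS samples, where the rule had used no value. The values compared still depend on gene length. The order of mean log2 PpGC was Gm41335 at 6.17, Mir100hg at 4.59, Bcl2 at 4.53 and Pvt1 at 3.46. None of the 6 pairs differed beyond the spread between animals in an exact sign-flip permutation test, two-sided, over 9 samples. The pair farthest apart was Gm41335 and Pvt1, with a mean difference, Pvt1 minus Gm41335, of -2.71 ± 3.90 (SD), an exact p of 0.0703 and 0.422 after Benjamini-Hochberg adjustment over the 6 pairs. The other pairs had exact p-values from 0.348 to 0.938. Neighbours in this order therefore could not be separated with 9 animals.

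Set against the other genes of their own samples, the values of the 4 genes lay low in ALS. Of their 23 ALS values above 0, 20 (87.0%) were below the median of the genes present in that sample. Long genes in general lay low, with 74.5% of 3748 ALS values below that median. In the controls 5 of the 15 values of the 4 genes were below it, where 78.9% of 859 values of long genes were. The control share was set by the rule and is a description. The exceptions in ALS were Bcl2 in ALS 1, Pvt1 in ALS 3 and Gm41335 in ALS 8, which lay above 93.6%, 61.2% and 86.0% of the genes present.

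Between the groups, the mean difference, ALS minus control, was 2.47 for Gm41335, 1.10 for Mir100hg, 0.62 for Bcl2 and 0.085 for Pvt1 on the log2 PpGC scale. All 4 were smaller than the pooled SD between samples, which was 4.42, 4.82, 5.17 and 4.38 in that order. The median difference over all genes was 1.19, and over the long genes 1.93. Pvt1, Bcl2 and Mir100hg thus lay below both medians and Gm41335 above both. The rule asked for high control values, which lowers the difference of a chosen gene, so this placing is a description. Only 25.0% of all genes had a value above 0 in any control sample. The direction of these differences depended on the setting. With a pseudocount of 100 in place of 1, or with the samples scaled to equal totals, the difference turned to -0.67 and -0.37 for Mir100hg, -0.10 and -0.50 for Bcl2 and -0.086 and -1.18 for Pvt1, and was 0.29 and 1.07 for Gm41335. With load as covariate it was below 0 for all 4 genes, -6.99 for Mir100hg, -6.16 for Bcl2, -2.53 for Pvt1 and -3.48 for Gm41335, in a fit where loads were shared by the groups only between 694 and 723 genes.

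The number of these genes that a sample carried moved with its load. Control 2, at 462 genes, and ALS 3, the sample of highest load at 2204, carried all 4. The controls with 3 or more of the genes had loads from 330 to 723. The 4 controls with none, control 4, 5, 9 and 10, had loads of 155, 57, 214 and 130. Control 6 and control 7 carried 2 of the genes at loads of 94 and 160. In ALS, every sample carried at least 1, and ALS 2 carried only Gm41335 at a load of 1346. Group and load hardly overlapped, so that their parts in the values of single genes cannot be told apart.

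**Figure D4:**
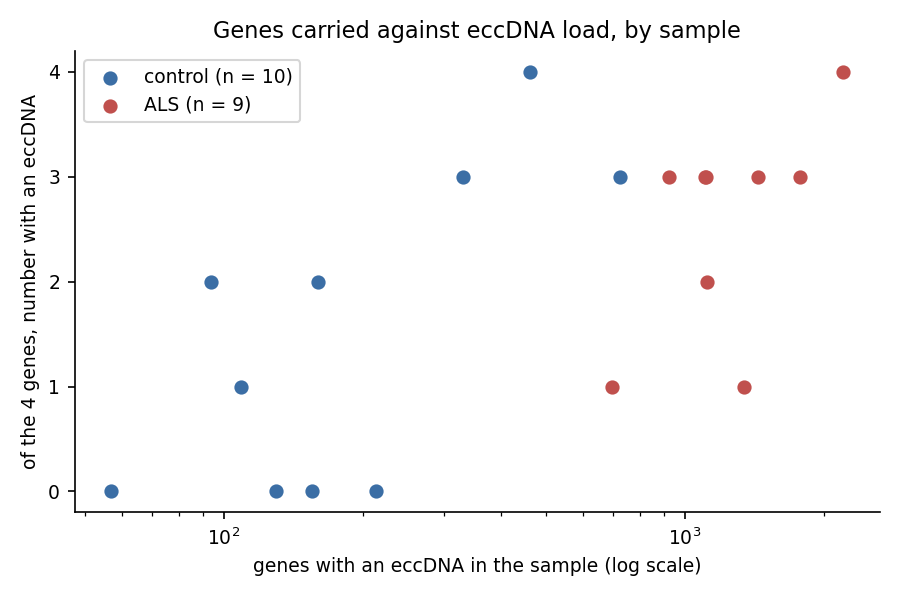
Each point is 1 sample, with its load, in genes carrying an eccDNA, on the horizontal axis (log scale) and how many of the 4 genes had one on the vertical axis, control samples (n = 10) in blue and ALS samples (n = 9) in red. ALS 7 and ALS 9, at 1105 and 1110 genes and 3 of the 4, fall nearly on each other, and all 4 controls without any of the genes lie at 214 genes or fewer.

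The share of genes by chromosome was uneven between samples. Only 1.58% of the genes present in ALS 2 lay on chr1, against a median of 6.19% in ALS, and Bcl2 was 0 there. Bcl2 was also 0 in the samples with the highest chr1 share of each group, ALS 4 at 13.7% and control 10 at 16.4%, and in control 6 at 9.57%. The carriers of Bcl2 had chr1 shares from 5.28% to 10.3% in ALS and from 3.82% to 9.22% in the controls. Only 1.83% of those in ALS 5 lay on chr15, against a median of 4.40%, and both Pvt1 and Gm41335 were 0 there. In control 7, chr15 took 11.5%, against a median of 3.97% in the controls, and Pvt1 was present while Gm41335 was 0. The part of these shares in the values was not tested.

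The genes that share a stretch of Mir100hg show where its circles lay. Gm48742 (chr9:41405374-41532087) and Gm49317 (chr9:41474855-41655483) are long non-coding RNA genes that lie wholly inside Mir100hg and overlap each other in a stretch that holds the Mir100 hairpin. The other 2 hairpins lie in the part of Gm49317 beyond Gm48742. A mapped circle is taken here as 1 contiguous piece, so the split reads on these rows bound its position. Circles joined from several loci are not covered by this reading. The split reads on Gm49317 equalled those on Mir100hg in control 1 (135), control 8 (1019), ALS 4 (3), ALS 8 (6) and ALS 9 (33). In ALS 3, 8 of 22 reads were on Gm49317. ALS 1 had all of its 23 reads on Gm48742 and none on Gm49317. Control 2 and ALS 5, with 159 and 4 reads, had none on either.

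It follows that no sample had reads on both nested genes, and no circle counted here overlapped the Mir100 hairpin. In control 1, control 8, ALS 4, ALS 8 and ALS 9 every counted circle touched the 123.4 kb at chr9:41532088-41655483, where Mirlet7a-2 and Mir125b-1 lie, and whether it covered a hairpin cannot be read from the table. The circles of control 2, ALS 1 and ALS 5 overlapped none of the 3 hairpins. The 3 control samples that voted for Mir100hg thus did not share 1 circle, since the reads of control 2 lay outside the stretch used by control 1 and control 8. In ALS 9 the neighbour 1700063D05Rik, 109.1 kb upstream, also had 33 reads, but a contiguous circle that held both genes would have overlapped Gm48742, which had 0.

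**Figure D5:**
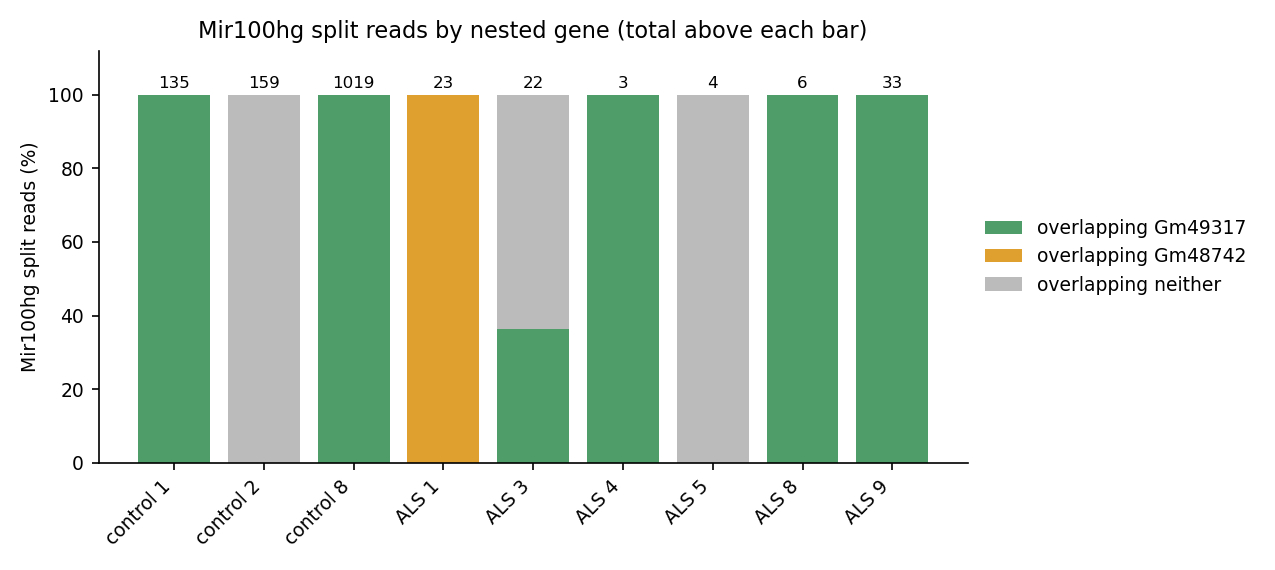
Bars give the percentage of Mir100hg split reads in each carrying sample that came from circles overlapping Gm49317 (green), Gm48742 (orange) or neither (grey), with the number of split reads above each bar. In 5 of the 9 samples all reads were on Gm49317, and no sample has reads on both nested genes.

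Bcl2 has an antisense gene at its 3′ end, D630008O14Rik (chr1:106541943-106575045), which overlaps part of the last exon block and holds Mir3473f. The reads cannot be given to a strand, since circles are double stranded. Only control 1 had reads on it, and these were both of its 2 Bcl2 reads. In the other 8 samples with Bcl2, among them ALS 1 with 717 reads and control 8 with 331, no circle overlapped D630008O14Rik or the hairpin. Their circles lay in the remaining 3′ end of Bcl2 or beyond D630008O14Rik, toward the 5′ end.

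Pvt1 and Gm41335 lie on the same chromosome and were found together in 6 samples. A contiguous circle that held both would overlap Gm41333 (chr15:62567975-62782787), which lies between them. In control 2, control 6, ALS 3 and ALS 7, Gm41333 had 0 reads, so on this reading the reads on the 2 genes came from separate circles. In ALS 4, Gm41333 had 3 reads and Gm41335 had 2. With at least 2 reads per circle, these cannot be parts of 1 spanning circle. In ALS 8, with 4 reads on Pvt1, 7 on Gm41333 and 1015 on Gm41335, the table cannot tell. A contiguous circle that held both genes would include the 798.7 kb between them, and the sizes of circles are not in the table. Mir100hg and Gm41335 were found together in 3 control and 5 ALS samples, and Mir100hg and Bcl2 in 3 and 4.

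Neighbours within 500 kb carried eccDNA in few samples. Of the 11 neighbours of Mir100hg in the table, 2 overlap it, and beside Gm49317 with 6 samples each was present in 1 sample. Phlpp1, which encodes a phosphatase of the AKT kinase 143.9 kb from Bcl2, was present in 1 control and 5 ALS samples and shared 4 of them with Bcl2. Its 248 reads in ALS 7 stood beside 2 on Bcl2. D030024E09Rik, a long non-coding RNA gene 263.5 kb from Pvt1, was present in 3 control and 4 ALS samples, 4 of them shared with Pvt1. Gm41335 had 3 neighbours in the table, of which Gm41333 shared 3 samples with it.

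The genes most like each of the 4 over the 19 samples were found by Pearson's r of log2 PpGC among the 669 genes present in at least 4 samples. The points share their sample and its load, and many are 0 in both genes, so r is given as a description. Mir100hg was most like Gm49317 (r = 0.76), which shares its reads, then Bcl2 (r = 0.71) and Dmd (r = 0.70), the dystrophin gene. Bcl2 was most like Mir100hg, then Mcph1 (r = 0.66), which encodes microcephalin, and Maml2 (r = 0.64), a Notch coactivator gene. Pvt1 was most like Tmem178b (r = 0.70), Atg10 (r = 0.67), which encodes an autophagy enzyme, and Pard3 (r = 0.64), a cell polarity gene. Gm41335 was most like Dok6 (r = 0.84), which encodes an adaptor of receptor tyrosine kinases, Dcc (r = 0.70), the netrin receptor gene, and Adgrl2 (r = 0.65), a latrophilin gene. Mir100hg and Bcl2, the only pair among the 4 that named each other, were both present in 7 samples.

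Other members of the pathways of these genes carried eccDNA in scattered samples. Of 8 anti-apoptotic genes of the BCL2 family only Bcl2 was in the table. Of 18 effector and BH3-only genes, which promote apoptosis, 5 were in it and 0 passed. With 1.33% of all genes passing as higher, less than 1 gene would pass in a list of this or of the following sizes at the same share, and a count of 0 says nothing about a list. Bok, a pore-forming relative of Bax, Bik and Hrk, which encode BH3-only proteins, and Bcl2l13, which encodes a mitochondrial family member, were each present in 1 ALS sample and no control. Bmf, also BH3-only, was present in control 2 alone. The median difference of these 5 genes was 1.23 beside 1.19 over all genes.

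Of 29 genes of mitochondrial apoptosis, 13 were in the table and 0 passed in either direction, with a median difference of 1.02. Itpr2, a long gene of 393.9 kb, alone met the one-sided reading, 1 of 13 beside 2.27% of all genes. The mean was higher in ALS for 11 and lower for 2, where it was lower for 13.5% of all genes. The 2 present most often were Itpr2, which encodes a calcium channel of the endoplasmic reticulum, in 6 ALS samples and 1 control, and Birc6, which encodes a caspase inhibitor, in 4 and 1. Their differences were 4.04 and 2.10, with exact permutation p-values of 0.0126 and 0.119, two-sided, and 0.581 for both after adjustment over all genes. Apaf1 and Trp53, which encode the apoptosome scaffold and p53, were each present in 1 ALS sample and no control. The 2 genes with a lower mean in ALS were Casp2, which encodes a caspase, and Diablo, which encodes a mitochondrial antagonist of caspase inhibitors. They were each present in 1 control, control 6 and control 7, and no ALS sample, with differences of -1.35 and -1.22.

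Among 23 microRNA host transcripts 7 were in the table, 5 of them besides Mir100hg and Pvt1, and 0 of the 5 passed. Mir99ahg alone met the one-sided reading, 1 of 5 beside 2.27% of all genes. Of the long genes, 20.2% were present in at least 5 ALS samples. Mir99ahg, the host of miR-99a shown above, is 537.1 kb long. It was present in 5 ALS samples and 1 control, control 10, where none of the 4 genes was. Its difference was 3.64, with an exact permutation p of 0.0186 and an adjusted p of 0.581. Rian, an imprinted non-coding RNA gene, was the 1 of the 5 with a lower mean in ALS, by a difference of -1.33, and was present in control 1 alone. The median of the 5 genes was 1.21.

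Of 42 long non-coding RNA genes 16 were in the table, and of the 14 besides Mir100hg and Pvt1 1 passed as higher and 0 as lower, beside 1.33% and 0.0% of all genes. The gene that passed was Snhg14, the long transcript of the imprinted Ube3a region. Of the long genes, 20.2% were present in at least 5 ALS samples. Snhg14, at 667.8 kb, was present in 5 ALS samples and no control. Its difference was 3.02, with an exact permutation p of 0.0108 and an adjusted p of 0.581, so that it passed by the test of the methods at 0.01 but not by exact permutation. One-sided, 2 of the 14 met the thresholds, Snhg14 and Mir99ahg, beside 2.27% of all genes. Sox2ot, the transcript that overlaps Sox2, was present in 3 control and 4 ALS samples and was the only one of the 14 in 3 controls. The 3 with a lower mean in ALS, Rian, Kcnq1ot1 and Gm26871, were each present in 1 control and no ALS sample. The median of the 14 was 1.30. Of 22 genes for Myc, its partners and its neighbours 7 were in the table, and 0 of the 6 besides Pvt1 passed, with a median of 1.19. Adcy8, which encodes an adenylyl cyclase, was present in 3 ALS samples, Asap1 and Mxi1, a Myc antagonist gene, in 2 each, and none of the 3 in a control. Max, which encodes the partner of Myc, was present in 1 ALS sample, Fam49b in 1 control and 1 ALS sample, and Lratd2 in control 1 alone, with a difference of -0.80.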

How the data were processed

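EccDNA was measured in 1 cervical spinal cord library per mouse. Per the paper's methods, the authors digested linear DNA with exonuclease for 7 days, starting from 400 ng DNA, amplified circles for 48 h, mapped paired reads to mm10, merged eccDNAs less than 10 bp apart, removed those with fewer than 2 split reads and intersected the rest with genes using bedtools. The deposited log2 values are the authors' log2(PpGC + 1), corrected for the length of each gene but not for differences between libraries. The gene annotation release is not given in the sources used here. Sequencing depth per library is not in the table, so only the split reads show the precision of a value. They cover counting error alone, since amplified reads are not independent molecules.

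Names were matched to GENCODE M21, which placed 8088 of 8336 genes, and 67 more by RefSeq synonym. The remaining 181 were not placed. Divided back by length, 98.9% of the values above 0 of the placed genes were whole split reads within 0.02. This takes the longest gene of the annotation, 4434882 bp, as the scale. The methods name the longest gene of the dataset, and with the longest gene that has a row, 34.8% were whole. Of all values, those of genes not placed included, 91.1% were 0 and 14144 were above 0. The members, gene lists and tests were chosen with earlier results of these data known. Over all genes, Student's test with a difference above 1 and p under 0.01 is named in the methods without its sides. It was run two-sided with equal variances, and one-sided as an added alternative. Single genes outside the rule were tested by exact permutation over 92378 splits, and pairs within ALS by exact sign-flip, whose smallest p is 0.00391. The genes named were the 4 members, the 3 genes most like each, the 3 next below the threshold, neighbours within 500 kb, and, per list, genes that passed and the 2 present most often; further list genes, chosen after their values were seen, are named to fill in a family. Each library was counted separately, since pairs of a group had at most 13.5% of their genes in common in ALS and 6.15% in the controls. Tests were checked on simulated data. Python 3.11.15, SciPy 1.17.1, R 4.3.3 and limma 3.58.1 were used. Alternatives were other thresholds, pseudocounts, scalings and tests, load as covariate, a replicate block and leaving out samples.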

Additional observations from a re-analysis of the deposited data

How the results depend on the processing

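The set of 4 genes depended on the rule. It held 7 genes at a threshold of 7, 2 at 9 (Mir100hg and Bcl2), 70 with any value above 0, 46 with 2 votes, 0 with 4 votes, 8 with equal totals per sample and 8 at 20 split reads without length scaling, an alternative chosen after seeing the data. Leaving out a control sample left 1 to 4 genes. It was 1 without control 2 or control 8, 2 without control 1, 6 or 7, and 4 without any other. The same rule in ALS gave 364 genes at 7, 71 at 9, 984 above 0, 1011 with 2 votes, 22 with 4 votes, 63 with equal totals and 154 at 20 split reads, against 181. It gave 89 to 151 without 1 ALS sample, with 107 without ALS 1 and 89 without ALS 3, where fewer samples vote. With load as covariate, the difference became -6.99 for Mir100hg, -6.16 for Bcl2, -2.53 for Pvt1 and -3.48 for Gm41335, where loads overlap only between 694 and 723 genes and the fit extends a line beyond shared data. Leaving out 1 sample gave 0.61 to 2.22 for Mir100hg, -0.58 to 1.64 for Bcl2, -0.76 to 0.82 for Pvt1 and 1.61 to 3.43 for Gm41335. Without length scaling, on log2(split reads + 1), it was -0.071, 0.0054, -0.056 and 1.16 in that order.

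With a replicate block the differences were 0.72, 0.19, -0.29 and 2.05 in the same order. Control 10 has no partner in the block, and leaving it out without a block gave the same differences. Without control 10 and without a block, 98 genes were higher in ALS. Deviations of same-numbered samples correlated at -0.021 to 0.023, and 2 of 9 matched their own number best. The labels name no pairs, and with 91.1% of values at 0 this check cannot exclude a shared batch. The 111 genes higher in ALS became 189 one-sided, 54 with the block, 166 with limma, 68 by exact permutation, 6 at an adjusted p under 0.05, 26 with load as covariate, 29 at p under 0.001, 60 with equal totals, 9 with a pseudocount of 100, and 85 to 133 without 1 sample. The 0 genes lower in ALS by Student's test, also 0 at an unadjusted p under 0.05 and by limma, became 84 with load as covariate, and the cause was not tested. No sample stood apart by Dixon's test in the 10 sets of values tested. Circles below 2 split reads were removed upstream, and 2 reads are the whole support of several values.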
